A study of Mus musculus with 12 samples.

Results

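The genes described here encode heat shock proteins and folding chaperones, the proteins that help other proteins fold, unfold or assemble. They were chosen by name, as every gene of the table whose symbol begins with Hspa, Hspb, Hspd, Hspe or Hsph and a digit, with Hsp90, or with Dnaja, Dnajb, Dnajc, Pdia or Cct and a digit. Of 90 genes found in this way, 6 pseudogenes with "-ps" in the symbol were left out. This gave 84 members of the 24775 genes in the table. They fall into 8 small heat shock proteins (Hspb), 11 Hsp70 genes, 3 Hsp110 genes, 3 Hsp90 genes, 3 Hsp60 and Hsp10 genes, 4 DnaJ A, 12 DnaJ B and 27 DnaJ C genes, 4 protein disulfide isomerases (Pdia) and 9 genes of the Cct chaperonin.

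Chaperones work in layers. Hsp70 binds and releases exposed stretches of unfolded protein in a cycle of ATP hydrolysis. J domain (DnaJ) proteins deliver the clients and start that hydrolysis, and Hsp110 exchanges the nucleotide. Hsp90 matures clients such as kinases, small heat shock proteins hold unfolding proteins in solution, and the barrel-shaped chaperonins, Cct in the cytosol and Hsp60 with its lid Hsp10 in mitochondria, enclose whole proteins. In the endoplasmic reticulum, BiP (Hspa5), Grp94 (Hsp90b1) and the disulfide isomerases fold secreted proteins. Heart muscle is rich in small heat shock proteins, several of which attach to the contractile apparatus.

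The hearts came from C57BL/6 mice of wild-type genotype. Every mouse carried a virus, either AAV9-Vector or AAV9-PRODH, where AAV9 is an adeno-associated virus that reaches heart muscle and PRODH stands for proline dehydrogenase, an enzyme of mitochondria with which proline breakdown begins. A sham operation or transverse aortic constriction (TAC), a narrowing of the aorta that puts the left ventricle under pressure load, followed 3 weeks after injection, and hearts were taken 4 weeks after surgery. The 4 groups, called vector or PRODH for the virus and sham or TAC for the surgery, each had 3 libraries of 10.1 to 15.2 M reads. The sources used here do not give the promoter that drives PRODH, the age and sex of the mice or the part of the heart sampled. Prodh itself lay between 496.7 and 1319.9 normalized counts in the 6 PRODH libraries and between 159.6 and 379.3 in the 6 vector libraries, with no overlap.

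Values are normalized read counts, that is, reads per gene divided by 1 size factor per library. Differences are on the log2(value + 1) scale with their standard error, from limma fitted to all 12 libraries, and p is adjusted by the Benjamini-Hochberg method over the 21173 genes tested. A gene "rose" or "fell" when its adjusted p was under 0.05. Of the 84 members 83 could be tested. Dnajc5b, above 0 in PRODH sham replicate 2 (1.1) and PRODH TAC replicate 1 alone, did not pass the filter on low values. The mean over all libraries was at least 100 for 69 members and under 10 for 9. The labels do not say whether each library is a separate mouse, so the p-values measure the spread between these libraries.

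One library stood apart in ways that touch the results below. In vector TAC replicate 1 the summed count of the 13 epicardial and mesothelial markers was 644.8, against 238.6 and 292.5 in vector TAC replicates 2 and 3 and 165.6 to 264.8 in vector sham. Its 5 red blood cell markers summed to 120145, against 11237.1 and 17754.8, and its 10 macrophage markers to 25333.3, against 12133.6 and 11966.2. PRODH sham replicate 2 was alike in the mesothelial list (692.1) and the red blood cell list (138440.9). The 12 ventricular myocyte markers summed to between 600920.1 and 1022720.3 in all 12 libraries, and no marker of any of these 4 lists was at 0 in every library. In whole tissue, fewer cells of a type and less RNA per cell cannot be told apart.

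The promoters of some of these genes carry known control letters, shown here for genes that the heat-inducible, mitochondrial and endoplasmic reticulum sets described below turn on. The heat shock element, bound by heat shock factors, is an array of inverted units, searched as GAANNTTC and TTCNNGAA (2 units, N being any base) and as both joined through the shared TTC (3 units, GAA, TTC and GAA with 2 free bases between neighbours). The endoplasmic reticulum stress element, searched as CCAAT and CCACG with 9 free bases between them, and its second form, ATTGG and CCACG with 1 free base between them, are bound by factors of the unfolded protein response. Both strands were searched in RefSeq windows from 250 bases before to 50 after each transcript start, on GRCm38.p6. Windows were at hand for 68 members (87 windows) and for 32851 windows in all. The 3-unit heat shock element stood in 6.9% of member windows and in 0.603% of all windows. It lay in those of Hspd1, Hspe1, Hsph1 and Dnajb6, that is, in 4 of 68 members against 179 of 27025 genes. Windows of the same gene or of neighbours can overlap, so a site can count more than once. GAANNTTC stood in 19.5% of member windows against 7.86% of all, and TTCNNGAA in 11.5% against 8.52%, in 15 and 8 of the 68 members. The endoplasmic reticulum stress element stood in 4.6% against 0.119%, in Hspa5, Hsp90b1, Dnajc3 and Pdia6, and its second form in 1.15% against 0.0365%, in Dnajb11. In the following sequences, read 5′ to 3′ on the strand of the gene, the fixed letters of the heat shock element are in capitals in the first 4 and those of the endoplasmic reticulum stress element in the last 3.
Hspa1a, 200 bases before its start, chr17:34972157-34972356, minus strand: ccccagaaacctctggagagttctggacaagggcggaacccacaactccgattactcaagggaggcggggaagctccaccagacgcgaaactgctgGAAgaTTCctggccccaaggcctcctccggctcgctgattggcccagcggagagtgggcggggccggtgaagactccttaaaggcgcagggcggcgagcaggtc
Hspa1b, 200 bases before its start, chr17:34959239-34959438, minus strand: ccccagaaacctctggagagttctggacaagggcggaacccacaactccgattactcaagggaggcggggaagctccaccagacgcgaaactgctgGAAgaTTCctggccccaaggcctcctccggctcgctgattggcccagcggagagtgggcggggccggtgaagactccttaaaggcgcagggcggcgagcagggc
Hspb1, 200 bases before its start, chr5:135887719-135887918, plus strand: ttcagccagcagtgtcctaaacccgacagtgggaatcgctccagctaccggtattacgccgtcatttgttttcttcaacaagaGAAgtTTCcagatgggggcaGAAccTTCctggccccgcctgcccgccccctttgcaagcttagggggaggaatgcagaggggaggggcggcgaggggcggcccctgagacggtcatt
Hspd1, 30 bases that also lie in the window of its divergent neighbour Hspe1, chr1:55088053-55088082, minus strand: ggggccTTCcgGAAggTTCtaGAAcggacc
Hspa5, 30 bases, chr2:34772020-34772049, plus strand: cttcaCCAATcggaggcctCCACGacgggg
Dnajc3, 200 bases before its start, chr14:118937732-118937931, plus strand: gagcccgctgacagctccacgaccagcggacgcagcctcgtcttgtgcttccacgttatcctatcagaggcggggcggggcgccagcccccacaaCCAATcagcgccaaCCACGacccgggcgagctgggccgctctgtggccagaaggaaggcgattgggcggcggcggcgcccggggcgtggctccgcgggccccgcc
Pdia6, 156 bases from 200 to 45 before its start, chr12:17266389-17266544, plus strand: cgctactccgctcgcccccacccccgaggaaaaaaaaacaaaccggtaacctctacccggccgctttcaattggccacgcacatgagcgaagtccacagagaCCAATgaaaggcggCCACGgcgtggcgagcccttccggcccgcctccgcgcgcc

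Hspa1a and Hspa1b lie close together on chromosome 17, and 199 of the 200 bases shown are identical between them. The stretches of Hspd1 and Hspa5 lie upstream of the RefSeq start used here but inside an exon of the GENCODE M21 annotation, so only 30 bases are shown. The windows of Pdia3, Pdia4 and Dnajc28 held none of the 5 forms searched. A match is a description of letters and not a measured binding site.

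In the vector sham libraries the most abundant members, as normalized count per kilobase of exon, were the small heat shock protein Hspb7, which binds muscle filaments, at 11714.9 ± 3118.2 (SD, n = 3), the constitutive cytosolic Hsp90 gene Hsp90ab1 at 6978.5 ± 904.9, and the constitutive Hsp70 gene Hspa8 at 5591.4 ± 411.8. Hspb6, a small heat shock protein of muscle, followed at 5368.4 ± 1446.2, then Hspb1 at 4210.9 ± 581.2 and Hspb8 at 3490.5 ± 282.3. Hspa8 and Hspb6, and Hspb6 and Hspb1, differed by less than the larger of their SDs, so the order among these neighbours is not firm. Of the first 6 genes 4 were small heat shock proteins. The mitochondrial Hsp70 Hspa9 (2302.7 ± 183.2), its partner chaperonin Hspd1 (1962.9 ± 184.6) and BiP, Hspa5 (1757.2 ± 107.7), came next. The inducible Hsp70 genes were low in comparison, at 111.9 per kilobase for Hspa1b and 77.6 for Hspa1a. Hspb9, Dnajc22, Dnajb7, Cct8l1 and Dnajc6 were under 1 per kilobase, and Dnajc5b was at 0.

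TAC against sham in vector mice asks how these genes respond to pressure load, the first aim of the series. Few did at this sample size. Of 83 tested members 2 rose and 2 fell, 4.82% of them, against 7.77% of all genes tested, of which 3.72% rose and 4.05% fell. The median log2 difference was 0.07 over the members and 0.02 over all genes. At an unadjusted p under 0.05 there were 17 of the 83 members, and 4173 of all 21173 genes tested. The groups did not overlap for 13 members that were higher and 4 that were lower with TAC, where 10.1% and 10% of all genes tested did the same. The 95% interval of the difference lay within a 2-fold change in either direction for 69 members.

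Hspb1, the small heat shock protein Hsp25 of mice, rose. Its normalized count was 4619.5, 4751.1 and 3653.6 in vector sham and 5730.6, 6851.4 and 7827 in vector TAC. All 3 TAC libraries were above all 3 sham libraries. The log2 difference was 0.65 ± 0.18, or 1.56-fold, with an adjusted p of 0.039 by limma. This call was among the least stable, as it held in 3 of the 12 fits that left out 1 library.

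Dnajc2, the J protein that works at the ribosome on growing chains, rose by 0.55 ± 0.15 (adjusted p = 0.031 by limma). It counted 290, 258.1 and 337.3 in vector sham and 510.9, 402.1 and 389.1 in vector TAC. The groups did not overlap, and replicate 1 was the highest of the TAC libraries.

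Hspd1, the mitochondrial chaperonin Hsp60, fell by 0.53 on the log2 scale (SE 0.14, adjusted p = 0.031 by limma). Its values were 4857.1, 5746.2 and 4954.5 in vector sham and 4115.3, 3136.2 and 3565.9 in vector TAC. Every TAC library was below every sham library. Its lid protein Hspe1, which shares the promoter shown above, counted 3034.3 in vector TAC replicate 1 but 1374.4 and 1680.9 in replicates 2 and 3, against 1812.8 to 2345.8 in vector sham, and differed by -0.07 ± 0.21 (adjusted p = 0.91 by limma).

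Dnajc28, a J domain protein of little known function, fell by 0.85 on the log2 scale (SE 0.18, adjusted p = 0.0089 by limma), to 0.56 of its sham level. Its counts were 616, 658.3 and 694.6 in vector sham and 451.8, 271.3 and 393.2 in vector TAC, with no overlap. This was the only one of the 4 calls that held in all 12 fits without 1 library. Hspd1 held in 7 of 12 and Dnajc2 in 9 of 12. The count of 4 dropped to 1 when replicate 2 of either group was left out, and was 2 without vector sham replicate 3, vector TAC replicate 3 or PRODH TAC replicate 3. It was 0 when the 2 groups were fitted alone, and 11 by DESeq2 on the recovered reads. The share of all genes called moved as well. Without replicate 2 it was 4.54% (vector sham) and 3.92% (vector TAC), and the 3 fits with a count of 2 gave 5.07% to 6.63%. The 2 groups alone gave 1.51%, and DESeq2 gave 10.6%.

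**Figure D1:**
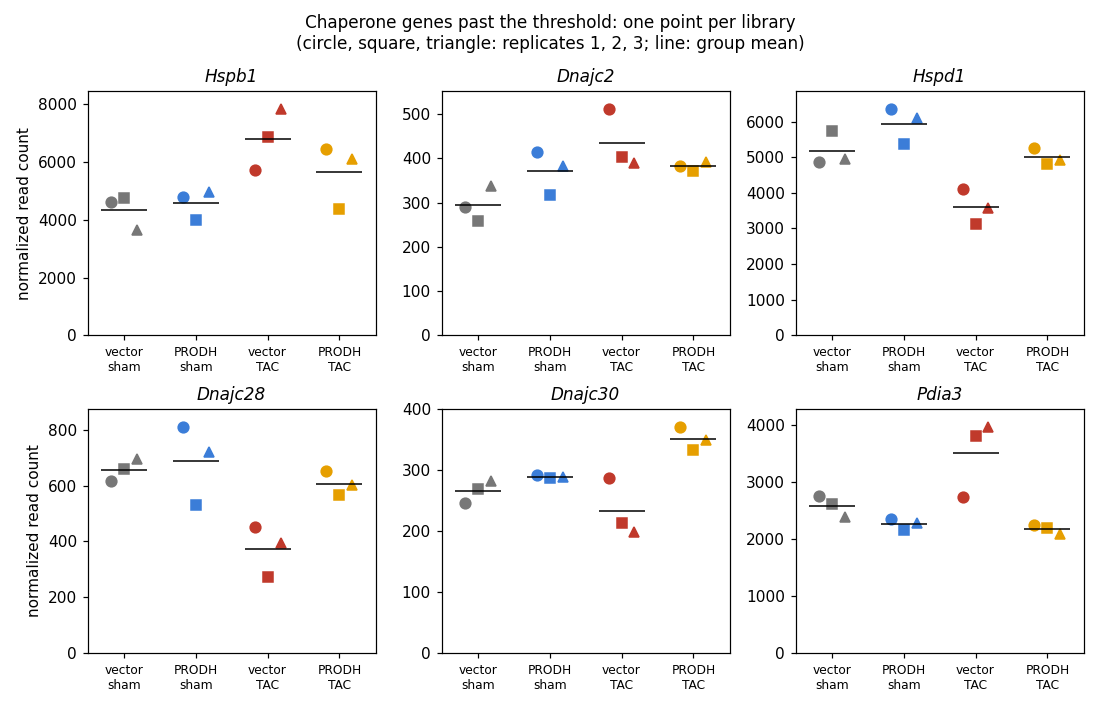
Normalized read counts (y axis, linear from 0) of the 6 members past the threshold in either of the first 2 comparisons, 1 point per library in each of the 4 groups, with the group mean as a line. Hspd1 and Dnajc28 are low in the 3 vector TAC libraries, and for Pdia3 and Dnajc30 vector TAC replicate 1 (circle) lies nearer to the other groups than replicates 2 and 3 do.

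Among the other small heat shock proteins, which buffer unfolding proteins in the muscle cell, none passed by limma on all 12 libraries. Hspb6 was the nearest, at 9152.7, 12085.6 and 15787.3 in vector sham and 21249.2, 18437.1 and 16605.4 in vector TAC, without overlap and with a difference of 0.63 ± 0.23 (adjusted p = 0.12 by limma). It passed by DESeq2, at 0.60 (adjusted p = 0.032), and under quantile scaling, at 0.75 (adjusted p = 0.036 by limma). Hspb7 differed by 0.43 ± 0.25 and Hspb8 by 0.30 ± 0.17. In PRODH mice the TAC against sham values of Hspb6 (0.51 ± 0.23) and Hspb7 (0.52 ± 0.25) were similar in size, and again did not pass by limma. Other genes of the family went the other way there, among them Hspb2 at -0.55 ± 0.17 and Hspb3 at -0.33 ± 0.20, which did not pass either. Of the 8 genes, 5 lay above 0 and 3 below in vector mice, and 4 above and 4 below in PRODH mice.

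Of 11 Hsp70 genes none passed by limma in this comparison, while DESeq2 on the recovered reads called Hspa1l (0.89, adjusted p = 0.04) and Hspa9 (-0.41, adjusted p = 0.0095). The constitutive Hspa8 differed by 0.10 ± 0.20 and BiP, Hspa5, by -0.16 ± 0.20. The mitochondrial Hspa9 counted 9022, 10489.2 and 10262.1 in vector sham and 8331, 6783.7 and 7248.9 in vector TAC, without overlap, and differed by -0.42 ± 0.15 (adjusted p = 0.13 by limma). Hspa1l, a low member of the family, lay between 29.8 and 47.3 in vector sham and between 54.7 and 73.6 in vector TAC, a difference of 0.88 ± 0.31 (adjusted p = 0.11 by limma). Reads of Hspa1l, Hspa1a and Hspa1b may be shared to an unknown extent, since the copies resemble each other.

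The Hsp90 genes differed by 0.33 ± 0.24 (Hsp90aa1, inducible), 0.16 ± 0.20 (Hsp90ab1, constitutive) and 0.15 ± 0.16 (Hsp90b1, endoplasmic reticulum). Hsph1, the inducible Hsp110, differed by 0.24 ± 0.24. In the DnaJ A and B classes, the Hsp70 partners, none of 16 passed by limma or by DESeq2. Dnaja4 differed by 0.32 ± 0.13, Dnajb4 by 0.23 ± 0.15, Dnajb5 by -0.12 ± 0.12, Dnaja1 by -0.03 ± 0.27 and Dnajb1 by -0.16 ± 0.27. Dnajb9 and Dnajc3, co-chaperones of BiP, differed by -0.20 ± 0.14 and 0.21 ± 0.18. The 4 disulfide isomerases all lay above 0 without passing by limma, at 0.42 ± 0.14 for Pdia3 (adjusted p = 0.085 by limma), 0.52 ± 0.20 for Pdia4, 0.39 ± 0.22 for Pdia5 and 0.19 ± 0.16 for Pdia6. DESeq2 called Pdia3, at 0.44 (adjusted p = 0.019). Of the chaperonin subunits, Cct2 was at 0.00 ± 0.11, Cct5 at 0.07 ± 0.12 and Cct8 at 0.19 ± 0.11. Cct3 counted 1533.3, 1545.7 and 1412.3 in vector sham and 2008, 1686.6 and 1750.1 in vector TAC. Its groups did not overlap, and the difference of 0.27 ± 0.11 did not pass by limma (adjusted p = 0.16) but passed by DESeq2 (0.28, adjusted p = 0.045).

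PRODH against vector in TAC mice, the second aim of the series, asks what the PRODH virus changed under load. Of 83 members 2 rose and 1 fell, 3.61%, against 3.92% of all genes tested, of which 2.12% rose and 1.8% fell. The median log2 difference was -0.02 over the members and -0.01 over all genes. An unadjusted p under 0.05 was found for 16 of the 83 members, and for 3488 of all 21173 genes tested. The groups did not overlap for 9 higher and 6 lower members, against 10.6% and 10% of all genes. This comparison and the one before it share the 3 vector TAC libraries, so a library that is high or low there moves both, in opposite directions.

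Dnajc30, a J protein of the mitochondrial inner membrane known for its part in the upkeep of respiratory complex I, rose by 0.61 ± 0.14, or 1.52-fold (adjusted p = 0.028 by limma). Its counts were 287.8, 213.3 and 198.6 in vector TAC and 371.3, 333.8 and 350.2 in PRODH TAC. The highest vector TAC library was below the lowest PRODH TAC library. In PRODH sham the values were 292.4, 287 and 288.8, against 246.8, 268.9 and 281.6 in vector sham. PRODH TAC was thus the highest group, and its difference from PRODH sham, 0.28 ± 0.14, did not pass.

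Dnajc28 rose by 0.74 ± 0.18, or 1.66-fold (adjusted p = 0.034 by limma). Its PRODH TAC values of 652.2, 567.7 and 602.7 all lay above the vector TAC values given earlier, of which the highest was 451.8. They overlapped those of PRODH sham, 811.3, 529.8 and 720.9. TAC against sham differed by -0.16 ± 0.18 in PRODH mice and by -0.85 ± 0.18 in vector mice. The test of the difference between those responses gave 0.69 ± 0.26 with an adjusted p of 0.45 by limma, so the responses were not shown to differ.

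Pdia3, the disulfide isomerase ERp57 that folds glycoproteins together with calnexin and calreticulin, fell by 0.67 on the log2 scale (SE 0.14, adjusted p = 0.015 by limma), to 0.63 of the vector TAC level. It counted 2745.4, 3814.8 and 3969.3 in vector TAC and 2240.5, 2190.6 and 2082.6 in PRODH TAC, without overlap. Vector TAC replicate 1 lay within the range of vector sham, 2379 to 2760.2. Pdia4 had the same order, at 507.6, 944.8 and 993.2 in vector TAC and 501.3, 419.5 and 483 in PRODH TAC, and differed by -0.74 ± 0.20 (adjusted p = 0.054 by limma). Pdia6 differed by -0.53 ± 0.16 (adjusted p = 0.074 by limma) and Pdia5 by -0.30 ± 0.22.

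All 3 calls of this comparison were lost when any 1 of the PRODH TAC libraries, or vector TAC replicate 2 or 3, was left out. Each of them remained without vector TAC replicate 1. The 2 groups fitted alone gave 0 calls, and DESeq2 gave 10, these 3 with Dnajb5, Dnaja3, Hspa9, Hspd1, Dnajc14, Pdia4 and Pdia6. Of all genes 0.51% were called with the 2 groups alone and 7.13% by DESeq2. The fits without 1 library that lost all 3 calls gave 1.18% to 2% of all genes.

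**Figure D2:**
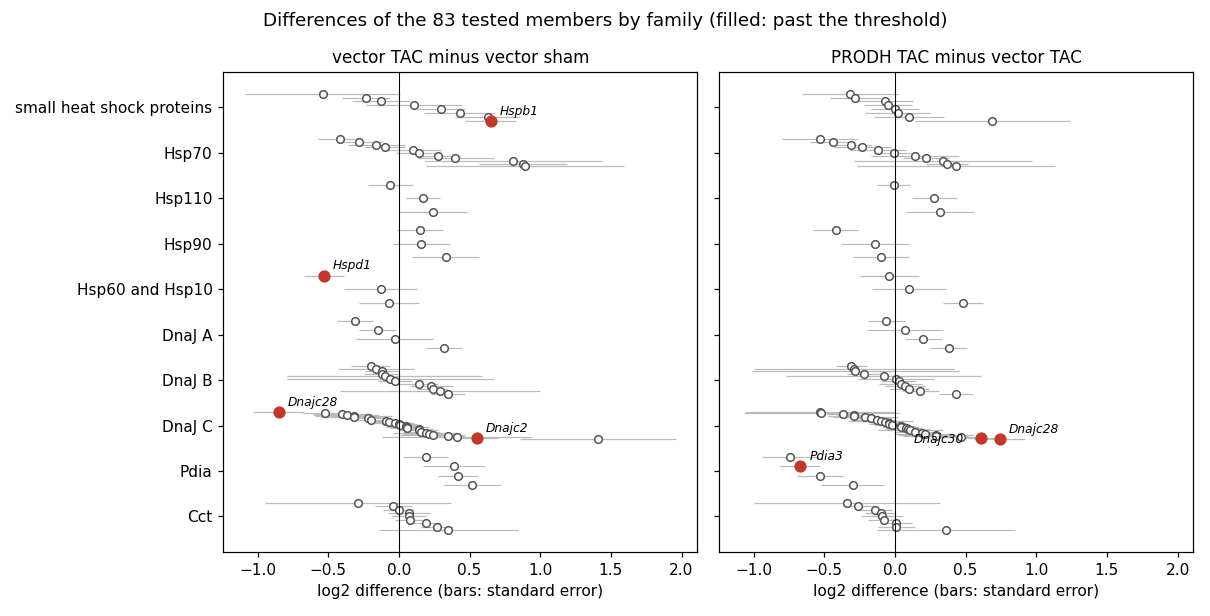
Log2 differences (x axis, with standard errors) of the 83 tested members by family (y axis), with TAC against sham in vector mice on the left and PRODH against vector in TAC mice on the right. Filled points passed the threshold, 4 on the left and 3 on the right, and the 4 Pdia genes lie right of 0 on the left and left of 0 on the right.

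Of the remaining families, the closest to the threshold were Dnajb5, a J protein known for a complex with thioredoxin and a class II histone deacetylase in heart muscle, at 0.43 ± 0.12 (adjusted p = 0.063 by limma), and Hspd1 at 0.48 ± 0.14 (adjusted p = 0.074 by limma). Dnajb5 counted 1181.4, 1327.6 and 1342.5 in vector TAC and 1544.6, 1870 and 1799.3 in PRODH TAC. Hspd1 counted 5267.2, 4797.4 and 4911.6 in PRODH TAC, all above its highest vector TAC value of 4115.3. Both genes were without overlap between these groups. Dnajc14, a J protein of the endoplasmic reticulum membrane, was narrow in each group, at 855.6, 811 and 841.8 in vector TAC and 675, 607.2 and 665.3 in PRODH TAC, and differed by -0.37 ± 0.11 (adjusted p = 0.077 by limma) after 0.35 ± 0.11 for TAC against sham in vector mice (adjusted p = 0.069). Hspa9 differed by 0.37 ± 0.15, Hsp90b1 by -0.42 ± 0.16, Hspa5 by -0.23 ± 0.20 and Dnajc3 by -0.29 ± 0.18.

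The cytosolic Hsp70 and Hsp90 genes lay near 0, with Hspa8 at -0.12 ± 0.20, Hsp90aa1 at -0.14 ± 0.24 and Hsp90ab1 at -0.10 ± 0.20. Hsph1 was at 0.32 ± 0.24 and Hspe1 at -0.04 ± 0.21. The small heat shock proteins Hspb1, Hspb6 and Hspb7 differed by -0.28 ± 0.18, 0.02 ± 0.23 and 0.10 ± 0.25. The J proteins Dnaja1, Dnaja4, Dnajb1, Dnajb4 and Dnajb9 differed by 0.07 ± 0.27, -0.06 ± 0.13, 0.01 ± 0.27, 0.04 ± 0.15 and 0.10 ± 0.14. Of the chaperonin subunits, Cct2 was at 0.01 ± 0.11, Cct5 at -0.14 ± 0.12 and Cct8 at -0.26 ± 0.11. None of the genes in this paragraph passed by limma or by DESeq2.

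The other comparisons called no member. PRODH against vector in sham mice called 0 of 83, against 0% of all genes tested, with 3 members at an unadjusted p under 0.05. TAC against sham in PRODH mice called 0, against 0.0236% of all genes, with 7 members at an unadjusted p under 0.05. The difference between both TAC responses called 0, against 0.104%, with 6 at an unadjusted p under 0.05. Of all 21173 genes tested, 871, 1816 and 1821 had an unadjusted p under 0.05 in these 3 comparisons. edgeR and DESeq2 on the recovered reads also called 0 members in each of these 3 comparisons. Of all genes edgeR called 0%, 0.052% and 0.151%, and DESeq2 called 0.0331%, 0.595% and 0.93%. The groups did not overlap for 10 higher and 4 lower members with PRODH in sham mice, against 6.33% and 4.89% of all genes, and for 11 higher and 15 lower members with TAC in PRODH mice, against 10.4% and 11.4%. The 95% interval lay within a 2-fold change for 71, 70 and 64 of the 83 members in these 3 comparisons. It lay within a 1.5-fold change for 50, 50 and 20 of them. The median standard error was 0.16 in the first 2 and 0.23 for the difference between the responses.

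Sorted by place in the cell, a grouping made after the values were seen and so given without a test, the members differed in how the vector TAC libraries behaved. The sets do not hold every member of a place, as Dnajc14 of the reticulum membrane was left out. The endoplasmic reticulum set holds 11 members of its lumen (Hspa5, Hspa13, Hsp90b1, Dnajb9, Dnajb11, Dnajc3, Dnajc10 and the 4 Pdia genes). For these 11 the mean log2 level relative to vector sham was -0.14 in vector TAC replicate 1, 0.31 in replicate 2 and 0.40 in replicate 3. In PRODH TAC it was -0.17, -0.16 and -0.19. For 8 mitochondrial members (Hspa9, Hspd1, Hspe1, Dnaja3, Dnajc11, Dnajc15, Dnajc19 and Dnajc30) it was 0.14, -0.48 and -0.43 in vector TAC and 0.04, -0.01 and 0.05 in PRODH TAC. Vector TAC replicates 2 and 3 thus stood high in the first group and low in the second, while replicate 1 did neither. Dnajc15, a J protein of the mitochondrial import motor, shows the split in 1 gene, at 1924.3 in vector TAC replicate 1 and 706.9 and 748.7 in replicates 2 and 3, against 1077.5 to 1383.2 in vector sham.

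**Figure D3:**
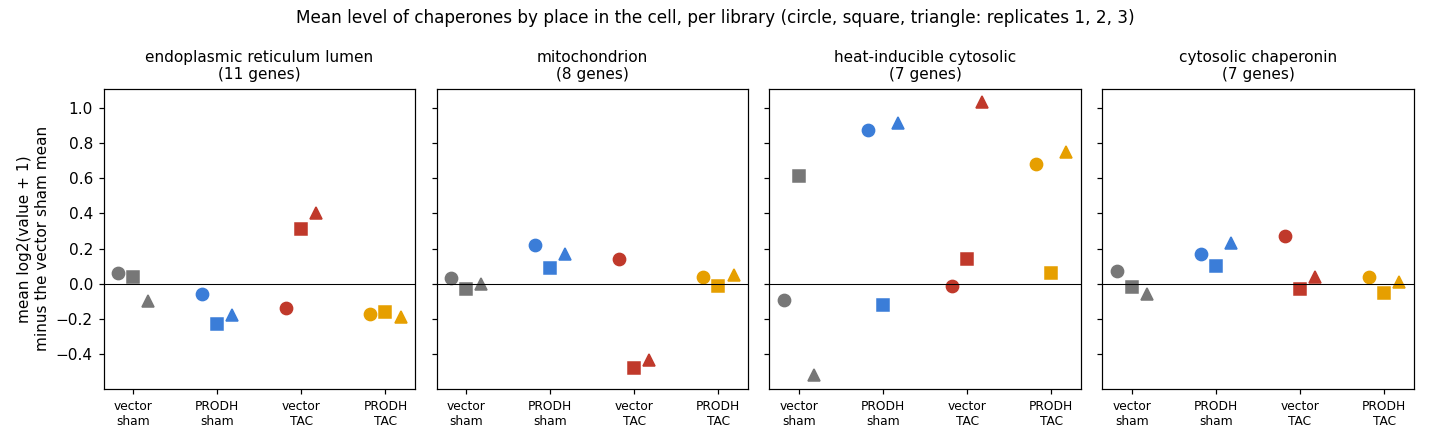
Mean log2(value + 1) minus the vector sham mean (y axis) of 4 sets of members by place in the cell, 1 point per library in each of the 4 groups. Vector TAC replicates 2 and 3 (square, triangle) lie at 0.31 and 0.40 in the endoplasmic reticulum set and at -0.48 and -0.43 in the mitochondrial set, replicate 1 (circle) at -0.14 and 0.14. The mean over the 7 heat-inducible genes scatters within every group.

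Leaving out vector TAC replicate 1 raised the counts, while leaving out replicate 2 or 3 lowered them. Without it TAC against sham in vector mice called 21 members, 10 up and 11 down, where 16.6% of all genes were called. PRODH against vector in TAC mice then called 19, 8 up and 11 down, where 13.2% of all genes were called. With all 12 libraries, 0 of 11 in the endoplasmic reticulum set rose with TAC in vector mice and 1 fell with PRODH under TAC. In the mitochondrial set 1 of 8 fell with TAC and 1 rose with PRODH. When vector TAC replicate 1 was left out, 6 of 11 in the endoplasmic reticulum set rose with TAC and 8 of 11 fell with PRODH. In the mitochondrial set 7 of 8 fell with TAC and 5 of 8 rose with PRODH. As the sets were made after the values were seen, these counts do not test them. Without vector TAC replicate 1 Pdia4, for example, was at 0.84 and -1.05, Dnajc15 at -0.79 and 0.75 and Hspa9 at -0.50 and 0.45. Without this library the TAC responses of Pdia3 (-0.65) and Pdia4 (-0.75) differed between PRODH and vector mice at an adjusted p of 0.021 and 0.029 by limma. That is 2 of 83 members, in a fit that called 1.98% of all genes for this difference. With all 12 libraries 0 members were called for it. These fits rest on 2 vector TAC libraries. Vector TAC replicates 2 and 3 also held the highest summed counts of the 12 fibroblast markers, 115441.9 and 98672.2, against 57445.9 in replicate 1 and 38193.4 to 45308.7 in the 9 other libraries, and the lowest of the ventricular myocyte markers, 600920.1 and 615277.2, against 789480.4 in replicate 1. The part of cell makeup in the chaperone values was not tested.

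Partner genes were counted from lists. Of 33 tested folding partners of the endoplasmic reticulum, 2 rose and 1 fell with TAC in vector mice, 9.09%, a share near the 7.77% of all genes. Txndc5, a disulfide isomerase of the thioredoxin family, rose by 0.83 ± 0.13 (adjusted p = 0.0013 by limma), P4hb, a disulfide isomerase that is also a subunit of prolyl 4-hydroxylase, rose by 0.42 ± 0.12 (adjusted p = 0.047), and Herpud1, which serves in the disposal of misfolded proteins, fell by 0.86 (SE 0.16, adjusted p = 0.0032). With PRODH under TAC 0 rose and 6 fell, 18.2% against 3.92% of all genes, among them Txndc5 by 0.73, Ppib, a prolyl isomerase that acts on collagen, by 0.66 and P4hb by 0.48 on the log2 scale. Their median difference was -0.25 in that comparison, against -0.01 over all genes. Of 10 mitochondrial partners, 2 fell with TAC in vector mice, the protease subunit Clpp by 0.51 and the mitochondrial Hsp90 Trap1 by 0.42, and none passed with PRODH under TAC, where Trap1 was at 0.24 ± 0.12.

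Of 36 genes listed as heat shock factors and cytosolic co-chaperones, 1 rose and 1 fell with TAC in vector mice, 5.56%. The list also holds Cryab and Tcp1, which are no members by their symbols, and the prefoldin genes. Bag2, an Hsp70 regulator, rose by 0.51 ± 0.14 (adjusted p = 0.035 by limma), and Fkbp4, an Hsp90 co-chaperone, fell by 0.59 (SE 0.15, adjusted p = 0.029). With PRODH under TAC the single call was Fkbp5, an Hsp90 co-chaperone induced by glucocorticoids, which fell by 0.81 (SE 0.18, adjusted p = 0.019).

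Among the 69 members with a mean of at least 100, the inducible Hsp70 genes Hspa1a and Hspa1b varied most, and they did so between libraries of the same group. Hspa1a, an inducible Hsp70, counted 156.3, 416.5 and 117.7 in vector sham and 629.2, 173.3 and 867.5 in PRODH sham. It counted 200.8, 245.3 and 841.8 in vector TAC and 567.8, 231.7 and 646.6 in PRODH TAC. All 4 groups overlapped each other. The SD within groups on the log2 scale was 1.04 for Hspa1a and 1.16 for Hspa1b, at the 99.8th and 99.9th percentiles of the 9582 genes with a mean of at least 100, where the median was 0.20 over all of them and 0.16 over the members. The other genes of the heat-inducible set ranged from 0.43 for Dnaja1, the J protein that works with Hspa8, down to 0.23 for Hspb1, at the 63.3rd percentile.

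Because the Hspa1a and Hspa1b copies can exchange reads, their sum was also formed. It ran over 366.1, 1012.3 and 253.2 in vector sham, 1604.4, 391.8 and 2100.5 in PRODH sham, 428.4, 601.4 and 2174.1 in vector TAC and 1354, 578.7 and 1616 in PRODH TAC. Within each of the 4 groups the sum kept the order of libraries seen in Hspa1a. With such spread the 95% interval for Hspa1a reached from -0.53 to 2.15 for TAC against sham in vector mice and from -0.99 to 1.68 for PRODH against vector in TAC mice. No difference could be told from the spread for Hspa1a and Hspa1b, whose intervals reached beyond a 2-fold change.

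**Figure D4:**
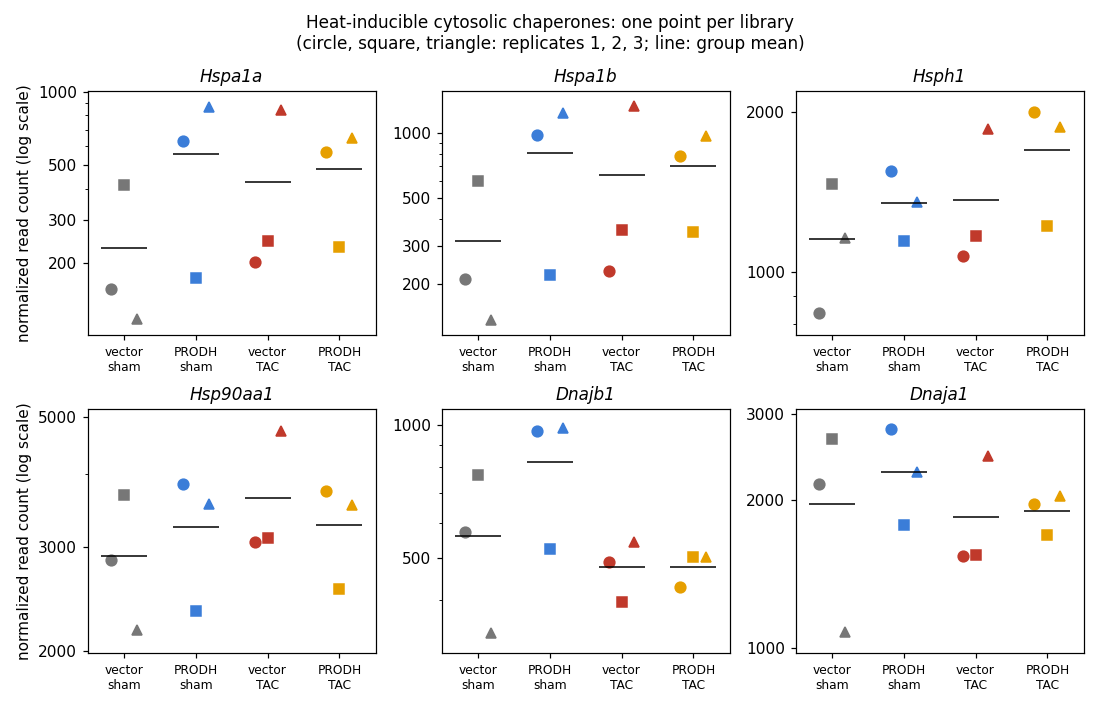
Normalized read counts (y axis, log scale) of 6 heat-inducible cytosolic chaperones, 1 point per library in the 4 groups, with the group mean as a line. Vector sham replicate 2 and vector TAC replicate 3 are the highest of their groups for every gene shown, and the lowest PRODH sham library is replicate 2.

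Genes of the heat-inducible set shared their highest library in the vector groups. In the PRODH groups all or most of them shared their lowest library. Of the 7 in the set (Hspa1a, Hspa1b, Hsph1, Hspb1, Hsp90aa1, Dnajb1 and Dnaja1), vector sham replicate 2 was the highest of its group in 7, vector TAC replicate 3 in 7, and PRODH sham replicate 2 was lowest within its group in 7. In PRODH TAC replicate 2 was the lowest in 6. The highest library was less shared in the PRODH groups. In PRODH sham it was replicate 3 in 4 of the 7 genes, and in PRODH TAC no replicate was highest in more than 3. Within groups the highest library exceeded the lowest by 2.79- to 5.01-fold for Hspa1a and by 1.24- to 1.48-fold for Hspb1. GAANNTTC was found in the windows of 5 of the 6 genes of this set with a window, Hspa1a, Hspa1b, Hspb1, Hsph1 and Dnaja1. The mean log2 level of 19 immediate early genes, which respond within minutes to handling and stress, relative to vector sham was 0.09, 0.78 and 1.12 in vector TAC, 0.10, 0.17 and 0.75 in PRODH sham and 0.63, 0.69 and 0.96 in PRODH TAC. Replicate 3 was the highest in these 3 groups, and also had the highest mean level of the heat-inducible set, at 1.03, 0.91 and 0.75. Replicate 1 was close to it for the heat-inducible set in PRODH sham (0.87) and PRODH TAC (0.68). For the immediate early genes replicate 1 was the lowest of both PRODH groups. In vector sham the immediate early mean was 0.25, 0.14 and -0.39, where replicate 2, the highest for the heat-inducible set, was not the highest. Its part in the scatter of the heat-inducible genes was not tested.

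At the other end, several members hardly varied in any library. The Hsp110 gene Hspa4 stayed between 2116.4 and 2747.8 with a within-group SD of 0.09, Dnajc5, the synaptic vesicle J protein also called cysteine string protein, between 1113.3 and 1379.1 with an SD of 0.08, and the chaperonin subunit Cct2 between 1571.4 and 1933.1 with an SD of 0.10. Among the ubiquitous subunits of this chaperonin, which folds actin and tubulin, the 7 with a Cct symbol (Cct2, Cct3, Cct4, Cct5, Cct6a, Cct7 and Cct8) had a mean log2 level between -0.06 and 0.27 relative to vector sham in all 12 libraries, with vector TAC replicate 1 the highest. The remaining one, Tcp1, is no member by its symbol and differed by 0.00 ± 0.13 with TAC in vector mice. By limma on all 12 libraries not one of them passed in any of the 5 comparisons, while DESeq2 called Cct3 for TAC against sham in vector mice, as given above.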

How the data were processed

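RNA from mouse hearts was sequenced in 12 libraries. Per the labels' protocols the RNA was taken up in TRIzol, freed of DNA with DNase I and turned into libraries by a SMARTER mRNA kit. The sources used here name no aligner, counting tool or genome build. The deposited table holds a signal: within a column every value is n times the smallest non-zero value, n being whole for 100% of values within a tolerance of 0.01, so the deposited values are read counts over a library's size factor. Division by that smallest value gave back whole reads.

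The test was limma 3.58.1 (trended prior, R 4.3.3) on log2(value + 1), a scale that understates changes of low genes. Genes entered if 3 or more libraries had a value of 1 or more. All 12 libraries were fitted with a mean per group, and the threshold was a Benjamini-Hochberg adjusted p under 0.05. A permutation of 3 against 3 libraries cannot go below p = 0.1. Alternatives were another pseudocount, filters, scalings, the 2 groups alone, a block for the replicate number, edgeR 4.0.16 and DESeq2 1.42.0 on the recovered reads, and leaving out libraries. The fit was tested on simulated data with the same spread setting for every gene and no outlying library. That test does not cover a library such as vector TAC replicate 1.

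The members, the lists and the genes named were chosen with earlier results of these data known. Named by rule were the calls, 27 members given whatever they did, and list genes of small p. Pdia5, Hspa1l, Hspb2, Hspb3, Hspb8, Hspa4, Dnajc5, Dnajc14, Dnajc15, Cct3, Tcp1 and the lowest genes per kilobase were named after their values were seen. Exon lengths are unions of GENCODE M21 exons. Promoter sequences are from RefSeq (GRCm38.p6). Not every member counted is named in the text.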

Additional observations from a re-analysis of the deposited data

How the results depend on the processing

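With 3 libraries per group, the 95% interval of a difference between groups lay within a 1.5-fold change for 40 to 50 of the 83 members. The direction of every called member was the same under every alternative run. The counts of members called in vector TAC against vector sham (4) and in PRODH TAC against vector TAC (3) were 0 and 0 when only the libraries of the comparison were fitted, where 1.51% and 0.51% of all genes were called, 11 and 10 by DESeq2, and 21 and 20 without both vector TAC replicate 1 and PRODH sham replicate 2. Of all genes DESeq2 called 10.6% and 7.13%, and the fit without both libraries called 17.6% and 14.1%. A filter that asked for values of 10 or more in 3 libraries gave 5 in the second, where 6.7% of all genes were called. Leaving out 1 library gave 1 to 21 and 0 to 19, and 0 to 0 for PRODH sham against vector sham, 0 to 1 for PRODH TAC against PRODH sham and 0 to 2 for the difference of the responses. The upper ends other than 0 came without vector TAC replicate 1, where 16.6%, 13.2%, 1.42% and 1.98% of all genes were called. PRODH TAC against PRODH sham gave 1, Hspb2 at -0.55, when only its own libraries were fitted and 2, Hspb2 and Dnajb1, without both libraries named above, where the difference of the responses gave 1, Pdia3 at -0.68. The shares of all genes beside these counts were 1.41%, 1.55% and 1.34%. edgeR called 4 in each of the first 2 comparisons, against 8.02% and 4.13% of all genes. Fits on fewer libraries have fewer degrees of freedom by construction, and the cause of the other shifts was not tested. Same-numbered libraries of different groups correlated between -0.05 and 0.14 in their deviations. Differently numbered libraries were not compared and no label says what the number marks, so whether it pairs samples cannot be told. With the replicate block the counts were 4, 4, 0, 0 and 0, against 8.2%, 4.32%, 0%, 0.0236% and 0.165% of all genes. Scaling moved the median of all genes by at most 0.093 (log2).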
